A study of Rattus norvegicus with 9 samples.

Results

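Toll-like receptor transcripts were followed across 9 rat spleen libraries. The receptors were Tlr1 to Tlr9 and Tlr13, chosen by gene name, 10 of the 34408 gene entries in the count table. Of these, 9 had a row under their own name. Tlr13 had none and was read from the row named AABR07039446.2, a name that rat RefSeq lists as a synonym of Tlr13. The 5 endosomal receptors were Tlr3, Tlr7, Tlr8, Tlr9 and Tlr13, and the 5 surface receptors were Tlr1, Tlr2, Tlr4, Tlr5 and Tlr6. There were 3 groups of 3 libraries. TAA+celecoxib rats received TAA (thioacetamide, a toxin that scars the liver) together with celecoxib, an inhibitor of cyclooxygenase 2. TAA rats received TAA alone, and control rats neither agent. TAA was injected intraperitoneally every 3 days, at 200 mg/kg over a first phase of 8 weeks and at 100 mg/kg over a second phase of 8 weeks. Celecoxib was given at 20 mg/kg/day through that second phase. Genotype was labelled WT throughout. The samples were labelled both as spleen and as splenocytes, and the RNA was described as coming from spleen. Whether the 3 libraries of a group stand for 3 animals is not stated in the labels, and the p-values below refer to the spread between libraries only.

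Toll-like receptors recognise molecules of microbes and of damaged cells. Surface receptors bind lipids and proteins of bacteria, while endosomal receptors bind nucleic acids and depend on the chaperone Unc93b1 to reach the endosome. Tlr3 signals through the adaptor Ticam1, Tlr4 through both Ticam1 and Myd88, and the other members through Myd88. Both routes lead to kinases that release NF-kappa-B and interferon regulatory factors. In the spleen the receptors are carried mainly by macrophages, monocytes, dendritic cells and B cells. In whole tissue, fewer cells of a type and less RNA per cell cannot be told apart.

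Library totals were 14211789 to 19014761 counts, and all 10 receptors passed the filter on low counts, with 190 to 4846 counts per library. CPM below are counts scaled to a common library total with TMM. On the first principal component (31.3% of the variance) TAA+celecoxib 1 lay at -60.3 and control 1 at -63.2, apart from the other 7 libraries, which lay between -1.73 and 50.1. Both were low in macrophage markers: the summed CPM of 13 such genes was 2497 in TAA+celecoxib 1 and 3129 in control 1, and 4941 to 9850 in the other 7 libraries. The spleen's B cell and T cell markers were present in every library, with 0 of 10 genes of either list at 0 counts. Hepatocyte transcripts were found in TAA 1 (840.1 CPM over 6 genes) and control 1 (114.7 CPM), against at most 1.40 CPM elsewhere. Pancreatic acinar transcripts were highest in TAA 2 (86.6 CPM over 6 genes) and control 3 (24.2 CPM), against 8.08 to 17.4 CPM elsewhere. Erythroid markers were highest in TAA+celecoxib 2 and TAA 1.

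Per length, the spleens carried more transcript of endosomal than of surface receptors. By deposited FPKM, which scale counts by gene length and library, the endosomal receptors made up 65.7% to 75.5% of the sum over the 10 receptors, and their sum was 1.92 to 3.07 times that of the surface receptors. Tlr7, a sensor of single-stranded RNA, had the highest mean FPKM over the 9 libraries, at 41.4, and it was above Tlr13 in 7 of them. Tlr13, a receptor that binds bacterial ribosomal RNA in mice, followed at 33.6 and was above Tlr8 in 9 of 9 libraries. Tlr8, encoded beside Tlr7 and an RNA sensor in humans, had a mean of 26.7 FPKM and was above Tlr2 in 7 of 9. Tlr2, the shared partner of Tlr1 and Tlr6 in binding bacterial lipoproteins, was the leading surface receptor at 18.4 FPKM, above Tlr9 in 9 of 9.

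The next receptors formed a close group whose order changed between libraries. Tlr9, a sensor of unmethylated CpG DNA, had a mean of 11.5 FPKM and exceeded Tlr1 (mean 10.6 FPKM) in 6 of 9 libraries. Tlr1 exceeded Tlr3 (mean 10.4 FPKM) in only 5 of 9, and Tlr3, a sensor of double-stranded RNA, exceeded Tlr4 (mean 9.41 FPKM) in 5 of 9. Tlr4, the receptor for lipopolysaccharide, exceeded Tlr5 (mean 7.60 FPKM) in 6 of 9. Tlr5, which binds bacterial flagellin, exceeded Tlr6 in 7 of 9, and Tlr6 was lowest at 3.47 FPKM. This order rests on the annotated gene lengths, which were 7452 bases for Tlr6 and 2349 bases for Tlr1. By mean CPM, which take no account of length, Tlr6 (26.1) was above Tlr1 (25.0).

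**Figure D1:**
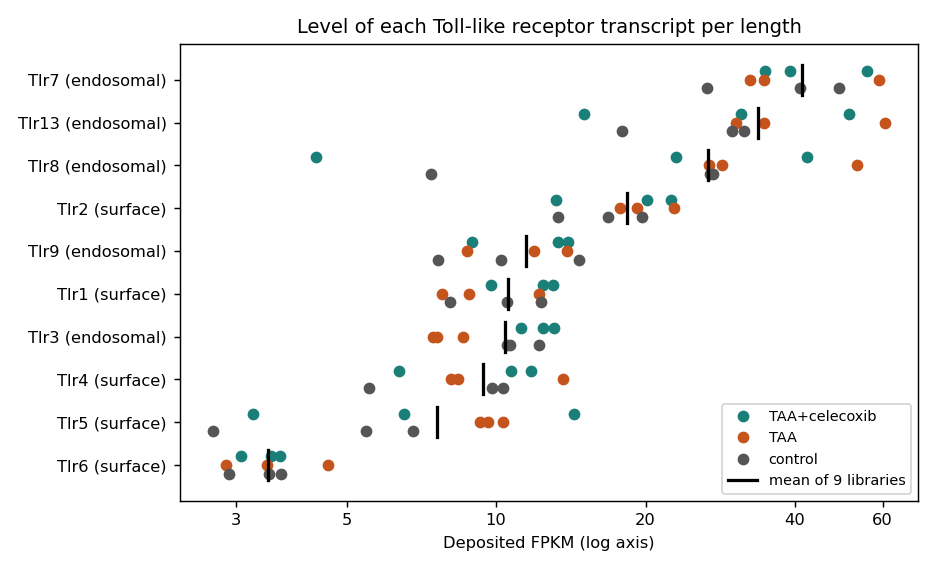
Deposited FPKM (log axis) of each receptor, ordered by its mean over 9 libraries (black bar), with 1 point per library coloured by group. Tlr7, Tlr13 and Tlr8 lie highest by mean and Tlr6 lowest, and the points of Tlr8 spread farthest, with TAA+celecoxib 1 and control 1 at its low end.

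The receptors also differed in how far they varied between libraries. Across the 9 libraries the highest CPM was 11.9 times the lowest for Tlr8, 5.19 times for Tlr5 and 3.91 times for Tlr13. The same ratio was 2.41 for Tlr4, 2.17 for Tlr7, 1.88 for Tlr9, 1.74 for Tlr3, 1.71 for Tlr1, 1.67 for Tlr2 and 1.59 for Tlr6. The lowest library was TAA+celecoxib 1 for Tlr8 and Tlr13 and control 1 for Tlr5, Tlr4, Tlr7, Tlr9 and Tlr2.

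Upstream sequences are shown for the 3 receptors that the comparisons below turn on: Tlr3 and Tlr5, whose TAA libraries lay apart from the controls, and Tlr8, which varied most. Each run is the 250 bases before the annotated start, from RefSeq on the build GRCr8, written 5′ to 3′ on the gene's strand, and capitals mark matches to the motifs named after them.
Tlr3 (chr16:53554666-53554915, + strand): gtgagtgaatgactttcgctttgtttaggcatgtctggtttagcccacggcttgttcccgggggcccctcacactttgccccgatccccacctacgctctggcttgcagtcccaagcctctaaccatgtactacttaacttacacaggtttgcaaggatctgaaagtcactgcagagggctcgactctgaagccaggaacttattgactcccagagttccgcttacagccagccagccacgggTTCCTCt
Tlr8 (chrX:30708476-30708725, + strand): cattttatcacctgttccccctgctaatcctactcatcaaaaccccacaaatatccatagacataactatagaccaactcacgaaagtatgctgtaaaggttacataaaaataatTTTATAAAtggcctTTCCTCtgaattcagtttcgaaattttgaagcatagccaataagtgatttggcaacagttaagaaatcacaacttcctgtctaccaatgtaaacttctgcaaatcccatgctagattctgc
Tlr5 (chr13:97182910-97183159, + strand): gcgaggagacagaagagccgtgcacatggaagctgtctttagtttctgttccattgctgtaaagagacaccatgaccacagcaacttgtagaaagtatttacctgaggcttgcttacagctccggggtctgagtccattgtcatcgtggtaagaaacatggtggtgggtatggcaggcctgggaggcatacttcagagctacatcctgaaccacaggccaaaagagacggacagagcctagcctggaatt
The 6 motifs, searched on both strands, were picked after a wider search had been looked at. They were the PU.1 core GAGGAA, the octamer ATGCAAAT, the AP-1 site TGANTCA, the TATA box TATAAA, the interferon-stimulated response element and the gamma-activated site TTCNNNGAA. GAGGAA was in the upstream runs of 6 of the 10 receptors, Tlr3, Tlr7, Tlr8, Tlr9, Tlr4 and Tlr6, and in 23.3% of 33469 upstream runs of the same length. TATAAA was found for Tlr8, where a match on each strand overlapped, and for Tlr1, against 12.9% of all runs. ATGCAAAT (1.56% of all runs) and TGANTCA (6.34%) were found for Tlr9 alone among the receptors. The interferon-stimulated response element (3.41% of all runs) and TTCNNNGAA (7.67%) were found for 0 of 10. Tlr5 had 0 matches to the 6 motifs. A match is a run of letters and not evidence of binding.

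TAA was first compared with control, which asks how the toxin changed the spleen. At an adjusted p under 0.05, edgeR called 0 of the 10 receptors and 0% of the 15954 genes tested. The smallest adjusted p over these genes was 0.325, and 957 had an unadjusted p under 0.05. limma-voom called 0 genes, with 861 under 0.05 before adjustment. DESeq2 called 53 genes, or 0.333% of the 15903 genes to which it gave an adjusted p, and Tlr3 was the only receptor of the 10 among them.

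Tlr3 was the only endosomal receptor of the 10 whose TAA and control libraries did not overlap. It lies on chromosome 16 at 50016857 to 50031214 in the files' coordinates (ENSRNOG00000021726). Tlr3 was at 33.8, 34.3 and 38.4 CPM in TAA libraries, against 55.7, 48.1 and 47.1 CPM in controls. Every TAA library was below every control library. Its log2 fold change was -0.50 (SE 0.119; unadjusted p = 0.00234), with an edgeR adjusted p of 0.788. With DESeq2 the value was -0.50 and the adjusted p 0.0493, so the call for Tlr3 depended on the tool, and its adjusted p ran from 0.0493 to 1 over the alternatives. The fold change stayed between -0.56 and -0.42 when each library was left out in turn. Without TAA+celecoxib 1 and control 1 together it was -0.43.

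Tlr7 and Tlr8 are neighbours on the X chromosome, 26200 bases apart in the files' coordinates. Tlr7 was at 150, 140 and 253 CPM in TAA libraries, against 117, 211 and 175 CPM in controls, and its log2 fold change was 0.11 (SE 0.294, edgeR adjusted p = 0.932). Tlr8 was at 91.9, 97.1 and 180 CPM in TAA libraries and at 25.6, 91.9 and 92.4 CPM in controls. TAA 3 was highest and control 1 lowest for both genes, and the groups overlapped. The log2 fold change of Tlr8 was 0.82 (SE 0.726, edgeR adjusted p = 0.813), and 0.42 without control 1. The ratio of Tlr8 to Tlr7 CPM was 0.612, 0.692 and 0.712 in TAA libraries, against 0.220, 0.435 and 0.527 in controls. These ratios did not overlap between the groups, and no test was run on them. How many other gene pairs had ratios that lay apart in this way was not counted.

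Tlr13 was at 142, 125 and 246 CPM in TAA libraries, against 74.1, 122 and 128 CPM in controls. TAA 2 lay among the controls, and the log2 fold change was 0.66 (SE 0.428, edgeR adjusted p = 0.788). It was 0.31 without TAA 3 and 0.85 without TAA 2. Tlr9 was at 28.8, 39.2 and 45.1 CPM in TAA libraries, against 25.3, 33.5 and 47.7 CPM in controls. Its groups overlapped throughout their range, with a log2 fold change of 0.09 (SE 0.267, edgeR adjusted p = 0.944).

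Among surface receptors, only Tlr5 had TAA and control libraries that did not overlap. Tlr5 (chromosome 13, 101381510 to 101385764, ENSRNOG00000022067) was at 41.5, 39.9 and 44.1 CPM in TAA libraries, against 11.7, 23.5 and 29.0 CPM in controls. The TAA libraries lay close together and the controls were spread, with control 1 lowest. The log2 fold change was 0.97 (SE 0.487; unadjusted p = 0.0787), with an edgeR adjusted p of 0.788 that ran from 0.534 to 1 over the alternatives. It was 0.68 without control 1. The summed CPM of 11 neutrophil and granulocyte precursor genes also lay apart, at 583, 489 and 2363 in TAA libraries, against 93.1, 369 and 298 in controls, with TAA 3 far above the rest. Macrophage genes did so too by summed CPM, at 6390, 6365 and 9850 in TAA libraries, against 3129, 5847 and 5507 in controls. By the mean log2 CPM of the same genes the groups overlapped. On that scale TAA 2 was at 7.365, below control 2 (7.373) and control 3 (7.368). The part of these cells in the Tlr5 values was not tested. Of all genes tested, 6.94% had every TAA library above every control and 7.89% had every TAA library below. The counts among the 10 receptors were 1 and 1. An unadjusted p under 0.05 was found for 0 of 10 receptors among those higher in TAA (2.85% of all genes) and for 1 of 10, Tlr3, among those lower (3.15%).

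The other surface receptors overlapped between TAA and control. Tlr1 was at 18.5, 20.9 and 28.7 CPM in TAA libraries, against 19.4, 24.9 and 28.9 CPM in controls (log2 fold change -0.11, SE 0.219). Tlr2 was at 46.5, 50.3 and 59.1 CPM in TAA libraries, against 35.3, 43.9 and 51.0 CPM in controls (log2 fold change 0.26, SE 0.208). Both were lowest in TAA 1 and in control 1 within their groups. Tlr4 was at 28.4, 27.4 and 45.7 CPM in TAA libraries, against 18.9, 34.7 and 32.8 CPM in controls (log2 fold change 0.23, SE 0.312). Tlr6 was at 21.6, 26.0 and 34.3 CPM in TAA libraries, against 22.1, 27.7 and 26.0 CPM in controls (log2 fold change 0.11, SE 0.185). TAA 3 had the highest value of Tlr4 and of Tlr6 in either group. The edgeR adjusted p of these 4 genes was 0.799 to 0.909. Tlr1 and Tlr6 lie 16215 bases apart on chromosome 14 and are close paralogs, so reads shared between them could have been split by the counting.

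By class, 4 of 5 endosomal and 4 of 5 surface receptors had a fitted log2 fold change above 0 in TAA against control, where 50.2% of all tested genes did. The exceptions were Tlr3 and Tlr1. With libraries left out, the sign changed at least once for Tlr1, Tlr4, Tlr6, Tlr7 and Tlr9. The median was 0.11 for endosomal and 0.23 for surface receptors, against 0.00 over all genes tested.

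**Figure D2:**
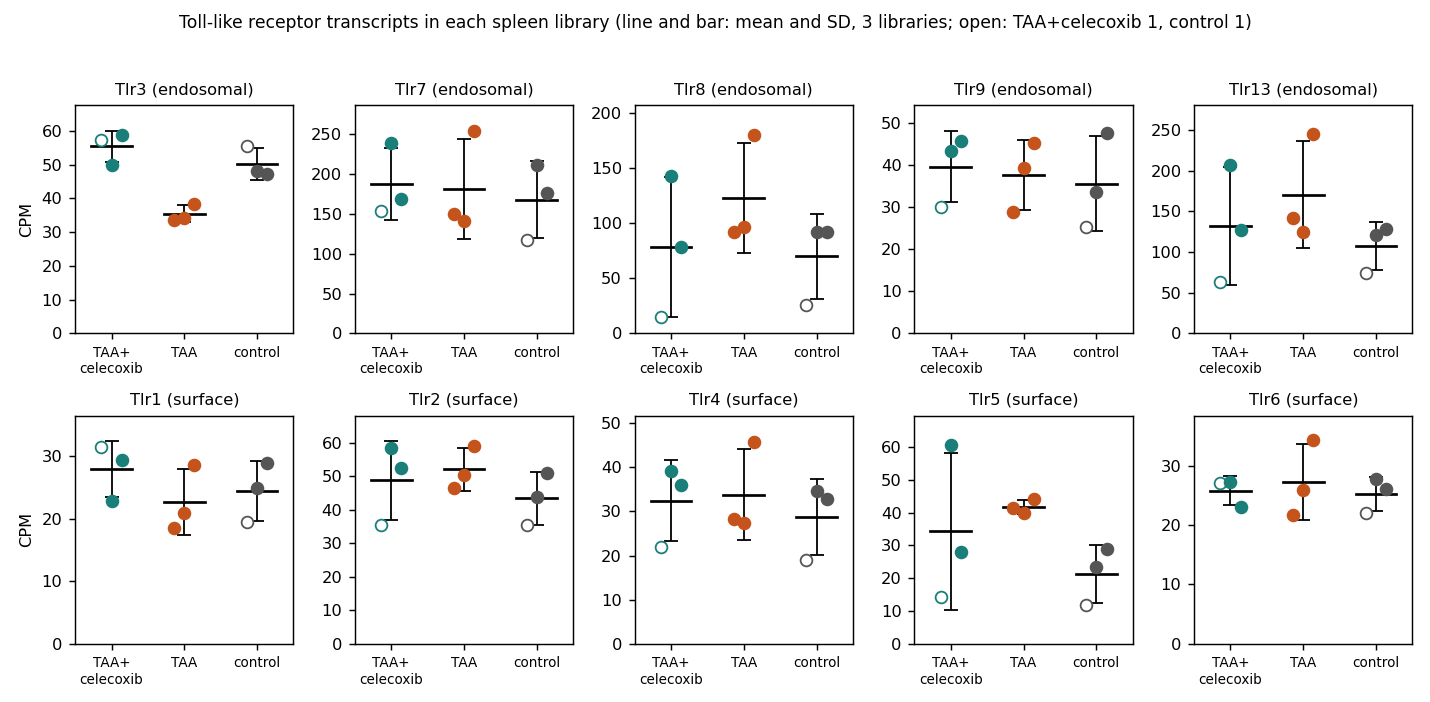
CPM of each receptor in each library (vertical axes from 0, a scale per receptor), endosomal receptors above and surface receptors below, with groups from left to right TAA+celecoxib, TAA and control. Lines and bars are means and SDs of 3 libraries, and open points are TAA+celecoxib 1 and control 1. The TAA libraries of Tlr3 lie between 33.8 and 38.4 CPM, below every other library, and those of Tlr5 between 39.9 and 44.1 CPM, above every control.

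TAA+celecoxib was next compared with TAA, which asks what celecoxib changed in TAA-treated spleens. Both TAA comparisons use the same 3 TAA libraries, so their values are set side by side and not read as separate evidence. edgeR called 0 of 10 receptors and 0% of 15954 genes, with a smallest adjusted p of 0.328 and 812 genes under 0.05 before adjustment. limma-voom called 0 genes, with 741 under 0.05 before adjustment. DESeq2 called 25 genes (0.157% of 15903), and Tlr3 was again the only receptor of the 10 among them.

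Tlr3 was at 57.5, 50.0 and 58.8 CPM in TAA+celecoxib libraries, against 33.8, 34.3 and 38.4 CPM in TAA libraries. Every TAA+celecoxib library was above every TAA library, which 5.87% of all genes tested showed, and Tlr3 was the only receptor of the 10 to do so. The opposite order, seen in 5.03% of genes, was found for 0 of 10. Tlr3 was also the only receptor with an unadjusted p under 0.05. The log2 fold change was 0.64 (SE 0.119; unadjusted p = 0.000468), with an edgeR adjusted p of 0.890. With DESeq2 it was 0.64 with an adjusted p of 0.00439, and over the alternatives the adjusted p ran from 0.00439 to 0.999. Leaving out each library in turn gave 0.59 to 0.71, and 0.62 was found without TAA+celecoxib 1 and control 1 together. As a share of the FPKM summed over the receptors, Tlr3 held 10.8%, 4.75% and 7.54% in TAA+celecoxib libraries, against 4.70%, 4.76% and 3.32% in TAA libraries. On this scale the groups overlapped.

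Markers of other cells were read beside Tlr3, and Xcr1, Clec9a and Cd8a are named here after their values were seen. The summed CPM of 10 T cell genes was 945, 689 and 894 in TAA+celecoxib libraries, 600, 732 and 602 in TAA libraries, and 1007, 850 and 824 in controls. Cd8a, a gene of this list, was at 93.3, 91.7 and 91.3 CPM in TAA+celecoxib libraries. It was at 45.0, 55.1 and 38.1 CPM in TAA libraries, against 79.5, 80.8 and 96.2 CPM in controls. Xcr1, the chemokine receptor of the cross-presenting dendritic cells, a type that carries Tlr3, was at 37.2, 28.8 and 35.9 CPM in TAA+celecoxib libraries, 22.2, 19.7 and 19.9 CPM in TAA libraries, and 47.4, 33.7 and 27.3 CPM in the controls. Clec9a, another marker of these dendritic cells, was at 58.7, 47.1 and 76.4 CPM in TAA+celecoxib libraries, 47.9, 45.3 and 73.6 CPM in TAA libraries, and 71.8, 77.8 and 67.4 CPM in the controls, and it overlapped between TAA and each other group. The summed CPM of the 9 conventional dendritic cell genes was 361 to 414 in TAA+celecoxib, 377 to 420 in TAA and 414 to 431 in control libraries. The summed CPM of 12 interferon response genes was 3101, 2523 and 1726 in TAA+celecoxib, 1490, 1299 and 1568 in TAA and 2030, 2030 and 1574 in control libraries. Xcr1, Cd8a and the summed interferon response genes were lower in each TAA library than in any library of the other groups. How many of all genes showed this order was not counted. For the interferon response genes the margin was narrow, at 1568 in TAA 3 against 1574 in control 3. By the mean log2 CPM of the same genes the groups overlapped, with TAA 1 (6.363) and TAA 3 (6.391) above control 3 (6.338). The part of these cells and genes in the Tlr3 values was not tested.

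For each of the other endosomal receptors of the 10, TAA+celecoxib 1 was the lowest library of its group. Tlr8 was at 15.1, 143 and 78.3 CPM in TAA+celecoxib libraries, against 91.9, 97.1 and 180 CPM in TAA libraries (log2 fold change -0.65, SE 0.724, edgeR adjusted p = 0.915). Without TAA+celecoxib 1 this was -0.16, and without TAA+celecoxib 2 it was -1.40. Tlr13 was at 62.8, 207 and 127 CPM in TAA+celecoxib libraries, against 142, 125 and 246 CPM in TAA libraries (log2 fold change -0.37, SE 0.427, edgeR adjusted p = 0.917). This was -0.01 without TAA 3 and -0.85 without TAA+celecoxib 2. The TAA+celecoxib libraries of both genes spanned more than the difference between group means.

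Tlr7 was at 154, 239 and 169 CPM in TAA+celecoxib libraries, against 150, 140 and 253 CPM in TAA libraries (log2 fold change 0.05, SE 0.294, edgeR adjusted p = 0.984). Tlr9 was at 29.9, 43.2 and 45.7 CPM in TAA+celecoxib libraries, against 28.8, 39.2 and 45.1 CPM in TAA libraries (log2 fold change 0.07, SE 0.267, edgeR adjusted p = 0.974). Both genes overlapped over nearly their whole range. The ratio of Tlr8 to Tlr7 CPM was 0.0984, 0.598 and 0.465 in TAA+celecoxib libraries, each below the 0.612 to 0.712 of TAA libraries, with no test run. Other gene pairs were again not counted.

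Each surface receptor overlapped between TAA+celecoxib and TAA. Tlr5 was at 14.2, 60.8 and 28.0 CPM in TAA+celecoxib libraries, against 41.5, 39.9 and 44.1 CPM in TAA libraries. TAA+celecoxib thus held both the lowest and the highest value, and the log2 fold change was -0.29 (SE 0.482, edgeR adjusted p = 0.934). Tlr1 was at 31.5, 22.9 and 29.4 CPM in TAA+celecoxib libraries, against 18.5, 20.9 and 28.7 CPM in TAA libraries (log2 fold change 0.30, SE 0.219, edgeR adjusted p = 0.890).

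Tlr2 was at 35.4, 58.3 and 52.5 CPM in TAA+celecoxib libraries, against 46.5, 50.3 and 59.1 CPM in TAA libraries. Tlr4 was at 22.0, 39.2 and 36.1 CPM in TAA+celecoxib libraries, against 28.4, 27.4 and 45.7 CPM in TAA libraries. Tlr6 was at 27.1, 27.3 and 23.0 CPM in TAA+celecoxib libraries, against 21.6, 26.0 and 34.3 CPM in TAA libraries. The log2 fold changes of these 3 genes were -0.09 (SE 0.208), -0.06 (SE 0.311) and -0.08 (SE 0.185), each smaller than its SE. Above 0 lay 3 of 5 endosomal and 1 of 5 surface receptors, where 51.2% of all genes did. With libraries left out, the sign changed at least once for Tlr2, Tlr4, Tlr5, Tlr6, Tlr7 and Tlr9. The median was 0.05 for endosomal and -0.08 for surface receptors, against 0.01 over all genes tested.

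**Figure D3:**
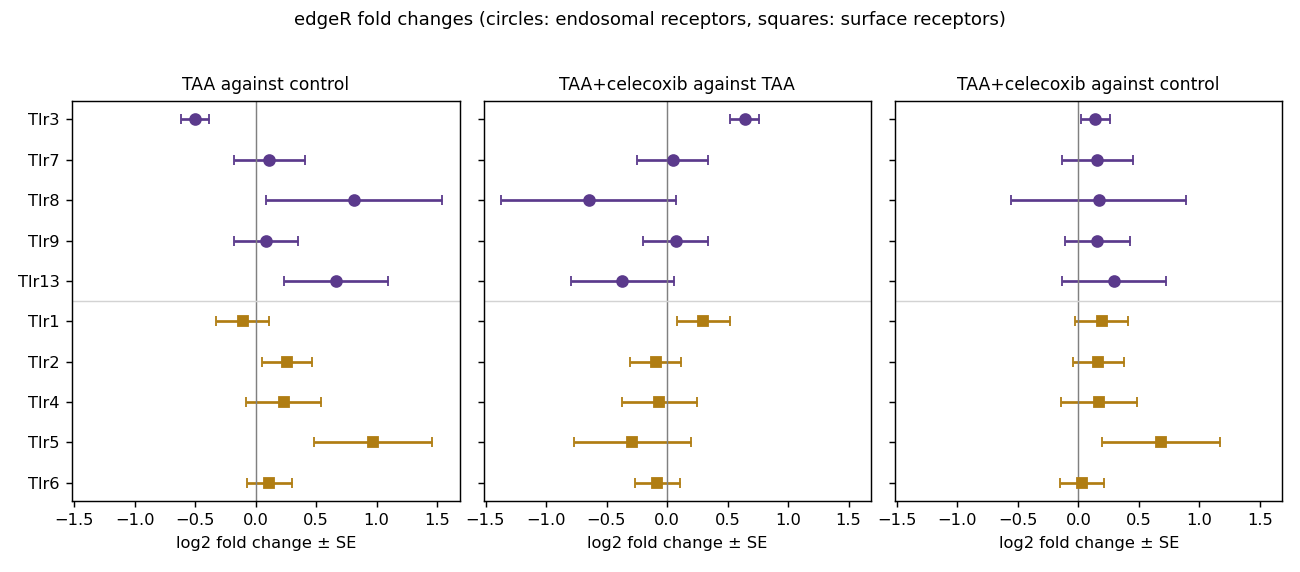
log2 fold change with its SE from the edgeR fit of 9 libraries, for each receptor (circles endosomal, squares surface) in each of the 3 comparisons. Tlr3 lies at -0.50 for TAA against control and at 0.64 for TAA+celecoxib against TAA, with an SE of 0.119 in each, and Tlr8 has the widest SEs.

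The third comparison set TAA+celecoxib against control, which asks how far spleens given both agents differed from untreated ones. edgeR called 0 of 10 receptors and 0% of 15954 genes, with a smallest adjusted p of 0.566 and 803 genes under 0.05 before adjustment. limma-voom called 0 genes, with 631 under 0.05 before adjustment, and DESeq2 called 27 genes, 0.17% of 15903. None of the 10 receptors was among those that edgeR, limma-voom or DESeq2 called.

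The 10 receptors each had a fitted log2 fold change above 0, between 0.03 for Tlr6 and 0.68 for Tlr5, where 50.2% of all genes lay above 0. Tlr8 was at -0.14 with limma-voom, and with libraries left out Tlr3 was the only receptor whose sign never changed. Every receptor overlapped between the groups, whereas 5.27% of all genes had every TAA+celecoxib library above every control and 4.42% had every one below. Tlr3 averaged 55.4 ± 4.73 CPM in TAA+celecoxib libraries, against 50.3 ± 4.68 CPM in control (SD, n = 3 each; log2 fold change 0.14, SE 0.119, edgeR adjusted p = 0.941). Tlr5 averaged 34.3 ± 23.9 CPM in TAA+celecoxib libraries, against 21.4 ± 8.81 CPM in control, and its log2 fold change of 0.68 (SE 0.486) became -0.02 without TAA+celecoxib 2. The medians were 0.16 for endosomal and 0.17 for surface receptors, against 0.00 over all genes.

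Patterns over the 9 libraries were compared by the SD of the log2 ratio between a pair of receptors, where a small SD means that the pair kept a steady ratio. All pairs share the same 9 libraries, so these values are descriptions. Over all 9 libraries the steadiest pairs were Tlr9 with Tlr2 at 0.173 and Tlr7 with Tlr4 at 0.174, each an endosomal with a surface receptor. Tlr2 with Tlr4 followed at 0.195, and Tlr1 with Tlr6 was at 0.245. Without TAA+celecoxib 1 and control 1 the steadiest pair was of endosomal receptors, Tlr8 with Tlr13, at 0.121 against 0.590 over all 9. Tlr7 with Tlr4 was then next at 0.136. The neighbours Tlr7 and Tlr8 were at 0.935 over all 9 libraries, but at 0.273 without TAA+celecoxib 1 and control 1. The loosest pair, Tlr3 with Tlr8, was at 1.35, and at 0.576 without them. Median SDs were 0.545 over the 10 pairs of endosomal receptors, 0.385 over the 10 pairs of surface receptors and 0.395 over the 25 mixed pairs. Without both libraries these medians were 0.354, 0.250 and 0.303.

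Receptors were also set against the mean log2 CPM of each marker list by the same measure. Over all 9 libraries, Tlr8 was nearest to the macrophage list (SD 0.532). Tlr13 (0.245), Tlr5 (0.441), Tlr4 (0.272), Tlr2 (0.310) and Tlr7 (0.361) were nearest to the monocyte list. Tlr1 (0.191) and Tlr9 (0.327) were nearest to the plasmacytoid dendritic cell list, Tlr6 (0.269) to the conventional dendritic cell list and Tlr3 (0.224) to the T cell list. Each receptor's own SD of log2 CPM over the 9 libraries gives its distance from a flat pattern. It was 1.15 for Tlr8, 0.774 for Tlr5, 0.619 for Tlr13, 0.403 for Tlr4, 0.309 for Tlr3 and 0.284 for Tlr1. For Tlr7 (0.369) and Tlr9 (0.336) it was close to the SD to the nearest list. For Tlr2 (0.274) and Tlr6 (0.203) it was smaller, so over the 9 libraries no list followed either gene better than a flat pattern. The nearest lists rested in part on TAA+celecoxib 1 and control 1, and without both the nearest list changed for 6 of the 10 receptors. It was then the monocyte list for Tlr8 (0.215) and Tlr6 (0.122), the endothelium list for Tlr4 (0.239), Tlr2 (0.241) and Tlr9 (0.243), and the plasma cell list for Tlr5 (0.326). It did not change for Tlr3, Tlr7, Tlr13 and Tlr1. The distance from a flat pattern was not worked out without both libraries, so these SDs were not set against it. The summed CPM of the macrophage list was 2497, 5526 and 4941 in TAA+celecoxib, 6390, 6365 and 9850 in TAA and 3129, 5847 and 5507 in control libraries. The 7 monocyte genes summed to 2976, 5679 and 2810 CPM in TAA+celecoxib libraries, 3304, 3538 and 5166 CPM in TAA libraries, and 2933, 3490 and 2912 CPM in the controls. Tlr8, Tlr13, Tlr5, Tlr4 and Tlr2 were lowest in the libraries that were low in macrophage genes. The part of those cells in the values was not tested.

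**Figure D4:**
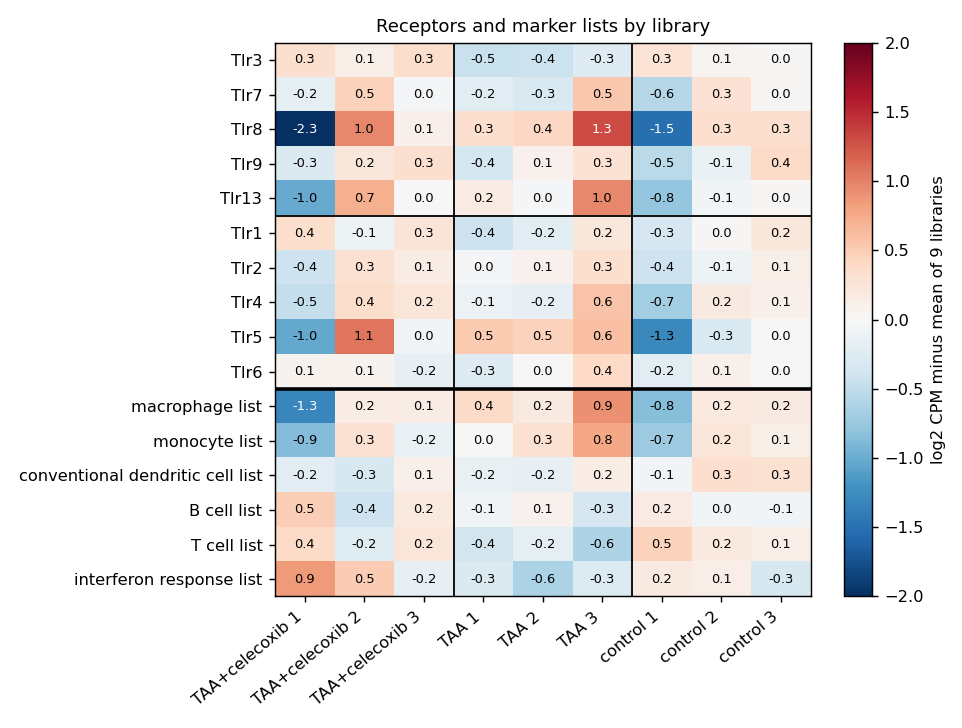
log2 CPM of each receptor, and mean log2 CPM of each marker list, minus the mean over the 9 libraries (rows: endosomal receptors, surface receptors, marker lists; columns: TAA+celecoxib, TAA, control). Tlr8, Tlr13, Tlr5, Tlr4 and Tlr2 and the macrophage and monocyte lists are at their lowest in TAA+celecoxib 1 and control 1. Tlr3 is below its mean in the 3 TAA libraries alone.

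The other genes whose pattern was most like a receptor's were taken from all tested genes by the same SD, and nothing is inferred from the likeness. For Tlr3 these were Usp40 (0.0945), Nabp1 (0.109) and Ints6l (0.111). Usp40, a deubiquitinase, was at 48.7, 46.6 and 50.1 CPM in TAA+celecoxib libraries, 28.5, 32.9 and 35.3 CPM in TAA libraries, and 50.2, 46.1 and 48.1 CPM in the controls. For Tlr8 they were Cers6 (0.174), AABR07039210.1 (0.204) and Msr1 (0.232), the last a scavenger receptor of macrophages. For Tlr5 they were Syngr1 (0.192), C3ar1 (0.223), the receptor of complement fragment C3a, and AABR07028615.1 (0.231). For Tlr13 they were Fnip2 (0.138), Inpp4a (0.158) and Mgst1 (0.164), and for Tlr7 Tent5a (0.106), Mitf (0.12) and Ccpg1 (0.141).

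Of the receptors with narrower ranges, Tlr2 was followed most closely, by Med13 (0.0503), Efcab14 (0.0548) and Polr2a (0.0599), the largest subunit of RNA polymerase II. Tlr4 was nearest to Cpne3 (0.0996), an unnamed gene model (0.108) and Snx13 (0.108). Tlr9 was nearest to AABR07029661.1 (0.102), Elf4 (0.12) and Zfp597 (0.13). Tlr6 was nearest to Hopx (0.0909), Gyg1 (0.0971) and Siae (0.0979), and Tlr1 to Nectin1 (0.128), Cblb (0.128) and Cd164 (0.129). Most of these neighbours depended on TAA+celecoxib 1 and control 1. Without both, 3 of the 30 were still among the 3 genes nearest their receptor, namely Usp40 for Tlr3, AABR07039210.1 for Tlr8 and Med13 for Tlr2, while Msr1 was at rank 133 for Tlr8 and Nectin1 at rank 120 for Tlr1.

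The rest of the pathway was read from 8 lists of 90 genes, from co-receptors to induced cytokines, of which 83 were tested. edgeR called 0 of the 83 in each comparison. At an unadjusted p under 0.05, 3 were higher and 3 lower in TAA against control, where 2.85% and 3.15% of all genes were. In TAA+celecoxib against TAA, 5 were higher and 3 lower (2.63% and 2.46% of all genes), and in TAA+celecoxib against control, 1 was higher and 4 lower (2.96% and 2.07%). Groups did not overlap for 4 genes higher and 11 lower in TAA against control, where 6.94% and 7.89% of all genes did not. These counts were 6 and 5 for TAA+celecoxib against TAA (5.87% and 5.03% of all genes). For TAA+celecoxib against control they were 2 and 4 (5.27% and 4.42%). For the genes named below, edgeR adjusted p-values were 0.788 to 0.997 for TAA against control, 0.890 to 0.984 for TAA+celecoxib against TAA and 0.911 to 1 for TAA+celecoxib against control.

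Of the remaining receptors of the family, Tlr12 was at 45.3, 47.5 and 37.0 CPM in TAA libraries, against 70.8, 60.4 and 52.5 CPM in controls, without overlap (log2 fold change -0.50, unadjusted p = 0.0582). Its TAA+celecoxib libraries were at 50.6, 32.9 and 63.4 CPM. Tlr11 was at 30.1, 31.6 and 40.5 CPM in TAA+celecoxib libraries, 22.2, 20.5 and 37.7 CPM in TAA libraries, and 35.0, 34.2 and 31.7 CPM in the controls. Tlr11 and Tlr12 bind profilin of protozoa in mice, and both are endosomal, but they were not counted among the endosomal receptors above. Cd14, the co-receptor that hands lipopolysaccharide to Tlr4, was at 12.5, 12.5 and 13.2 CPM in TAA+celecoxib libraries, 18.9, 18.8 and 31.1 CPM in TAA libraries, and 13.1, 18.3 and 14.6 CPM in the controls. Its TAA libraries lay above those of both other groups, with log2 fold changes of 0.58 for TAA against control (unadjusted p = 0.0306) and -0.85 for TAA+celecoxib against TAA (unadjusted p = 0.00487). Hmgb1, a nuclear protein that alerts the receptors when released, averaged 13.8 ± 1.57 CPM in TAA+celecoxib libraries, against 9.09 ± 0.806 CPM in TAA (log2 fold change 0.60, unadjusted p = 0.00645).

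Genes that fold, move and cleave the endosomal receptors had list medians close to 0. Of 12 such genes, 9 had a log2 fold change above 0 in TAA against control (median 0.10), where 50.2% of all genes did. In TAA+celecoxib against TAA, 11 had one below 0 (median -0.11), where 51.2% of all genes lay above 0. Genes of a list share the same 9 libraries, so such sign counts are descriptions. Unc93b1 averaged 265 ± 24.9 CPM in TAA+celecoxib libraries, 295 ± 32.2 CPM in TAA libraries, and 296 ± 25.3 CPM in the controls. Lgmn, an endosomal protease that cleaves receptors of this class, averaged 394 ± 160 CPM in TAA+celecoxib libraries, 520 ± 27.9 CPM in TAA libraries, and 376 ± 123 CPM in the controls. The TAA libraries of Lgmn lay above every control library, although its unadjusted p was 0.191. Myd88 averaged 101 ± 8.47 CPM in TAA+celecoxib libraries, 99.8 ± 10.9 CPM in TAA libraries, and 99.2 ± 10.7 CPM in the controls. All 5 adaptor genes tested had a log2 fold change above 0 in TAA against control (median 0.18), where 50.2% of all genes did. None of the 5 had an unadjusted p under 0.05.

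No kinase or transcription factor gene passed the test. The 16 kinase and ligase genes had medians of 0.05, 0.08 and 0.08 for TAA against control, TAA+celecoxib against TAA and TAA+celecoxib against control. Ikbke, a kinase that activates interferon regulatory factors, averaged 36.9 ± 4.20 CPM in TAA libraries, and 50.3 ± 13.8 CPM in the controls (log2 fold change -0.45, unadjusted p = 0.0495). Of the 12 transcription factors, 10 had a log2 fold change below 0 in TAA against control (median -0.19). Over all genes tested, 50.2% lay above 0. Irf3, a factor downstream of Tlr3 and Tlr4, averaged 88.0 ± 5.52 CPM in TAA libraries, and 117 ± 25.5 CPM in the controls, without overlap (log2 fold change -0.41, unadjusted p = 0.0507). Irf7, a factor downstream of Tlr7 and Tlr9, averaged 493 ± 118 CPM in TAA+celecoxib libraries, against 323 ± 77.8 CPM in TAA (log2 fold change 0.61, unadjusted p = 0.0369).

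Among feedback inhibitors, Socs3, which limits cytokine signalling, was at 19.3, 14.8 and 16.5 CPM in TAA+celecoxib libraries, 24.4, 25.2 and 32.9 CPM in TAA libraries, and 24.5, 21.6 and 22.2 CPM in the controls. Its TAA+celecoxib libraries lay below those of both other groups, with log2 fold changes of -0.71 against TAA (unadjusted p = 0.00216) and -0.43 against control (unadjusted p = 0.0278). Nfkbia, the inhibitor of NF-kappa-B, averaged 131 ± 30.2 CPM in TAA+celecoxib libraries, against 182 ± 21.9 CPM in control (log2 fold change -0.48, unadjusted p = 0.0389).

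Of 20 inducible target genes, 17 were tested, and 13 of them had a log2 fold change below 0 in TAA against control (median -0.29). Over all genes tested, 50.2% lay above 0. Il6, an inflammatory cytokine, was at 6.08, 4.77 and 4.12 CPM in TAA+celecoxib libraries, 1.63, 2.06 and 2.30 CPM in TAA libraries, and 4.38, 7.01 and 3.58 CPM in the controls. Each TAA library was below each library of the other groups, with log2 fold changes of -1.32 for TAA against control (SE 0.322; unadjusted p = 0.00279) and 1.31 for TAA+celecoxib against TAA (SE 0.322; unadjusted p = 0.00284). Cd86, a costimulatory molecule of antigen-presenting cells, ran the other way, at 48.1, 65.4 and 69.2 CPM in TAA+celecoxib libraries, 73.7, 88.4 and 126 CPM in TAA libraries, and 46.7, 66.8 and 65.2 CPM in the controls. Its log2 fold changes were 0.69 for TAA against control (unadjusted p = 0.0164) and -0.66 for TAA+celecoxib against TAA (unadjusted p = 0.0204). Ccl2, a chemokine for monocytes, averaged 2.69 ± 1.30 CPM in TAA libraries, and 5.63 ± 1.58 CPM in the controls, without overlap (log2 fold change -1.07, unadjusted p = 0.0289). Cxcl10, an interferon-induced chemokine, was at 106.5, 69.8 and 87.7 CPM in TAA+celecoxib libraries, against 50.7, 71.2 and 42.0 CPM in TAA (log2 fold change 0.69, unadjusted p = 0.0182).

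**Figure D5:**
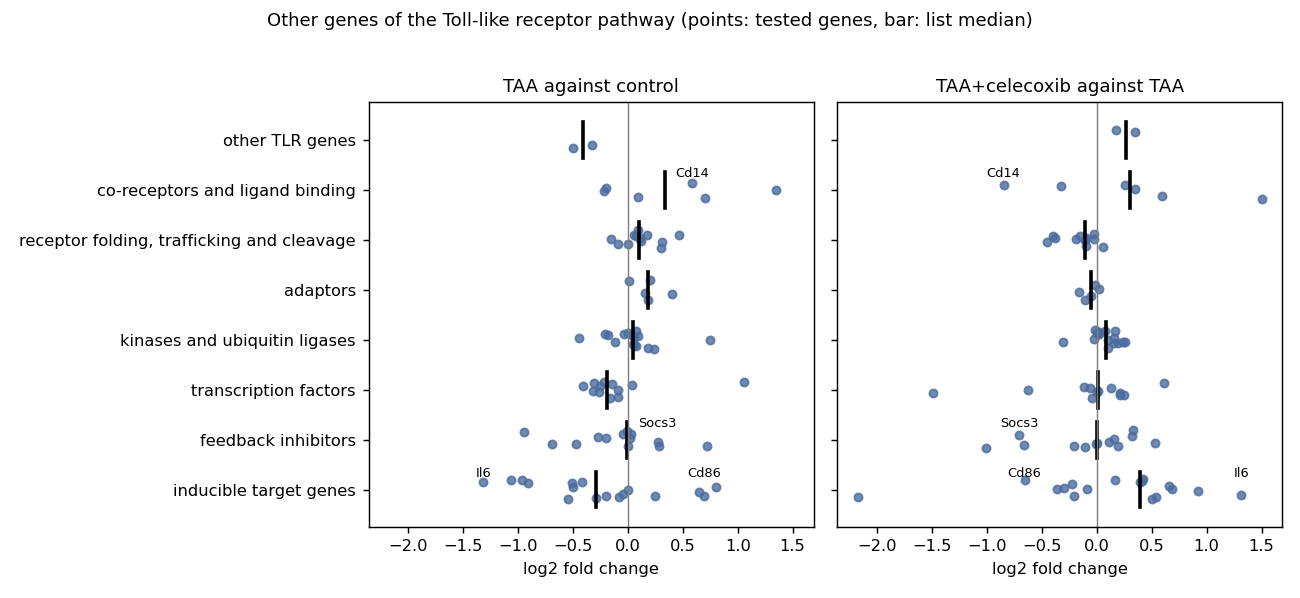
log2 fold change of the tested genes of 8 pathway lists (points, with the list median as a bar) for TAA against control on the left and TAA+celecoxib against TAA on the right, both from 1 edgeR fit and sharing the TAA libraries. Il6 lies at -1.32 and 1.31, Cd14 at 0.58 and -0.85, and Cd86 at 0.69 and -0.66.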

How the data were processed

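Gene counts and FPKM values were deposited by the authors. The counts are whole numbers with unequal library totals. Each FPKM equals the count divided by gene length and by 0.955 to 1.05 times the library's count total. The submitters' processing notes name the aligner HISAT2 2.0.5 and the genome build mRatBN7.2. How reads were counted, on which annotation and with which strand setting is not given in the sources used here, so overlapping genes could share reads. Coordinates follow the files, and their build is unresolved.

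The main test was edgeR 4.0.16 (R 4.3.3): quasi-likelihood tests from 1 fit of the 9 libraries with group as the factor, TMM scaling and the filterByExpr filter (count 10, total 15), which left 15954 genes. Tests were 2-sided, with Benjamini-Hochberg adjustment over these genes and a threshold of 0.05. SEs were derived from the F statistic. The common biological coefficient of variation was 0.311. Alternatives were RLE scaling, DESeq2 1.42.0, limma-voom 3.58.1, no filter, fits of the compared groups alone, the replicate number as a block, and libraries left out. An exact permutation test of 3 against 3 libraries cannot go below p = 0.1, so none was run. Chi-square per degree of freedom between libraries of a group was 17.5 to 122, so no pair agreed within counting error. Log2 ratios used log2 CPM with a prior count of 2. The fit was tested on simulated data.

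The receptors and gene lists were chosen with earlier results of these data known. Named genes are the 10 receptors, per pathway list up to 3 genes with the smallest unadjusted p in a comparison, and the 3 genes nearest each receptor. In the lists, Tlr10, Ly96, Cd36 and Ticam1 matched no row. Libraries with the same replicate number deviated together in TAA+celecoxib and control (correlations of 0.475, 0.178 and 0.337, each over 0.1), and not throughout in the other comparisons. The labels do not say what the number marks.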

Additional observations from a re-analysis of the deposited data

How the results depend on the processing

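Of 510 values of the receptors' log2 fold changes under alternatives, 459 kept their direction and their side of the threshold, 49 changed sign and 2 passed the threshold, both for Tlr3 with DESeq2 (adjusted p = 0.0493 and 0.00439). For 10 of the 30 log2 fold changes the sign never changed. Counts of called genes were 53, 25 and 27 with DESeq2 for TAA against control, TAA+celecoxib against TAA and TAA+celecoxib against control, against 0 with edgeR. A fit of the 6 libraries compared called 1 gene for TAA+celecoxib against control. Leaving out 1 library gave 0 to 1 genes for TAA against control (1 without TAA+celecoxib 2), 0 to 3 for TAA+celecoxib against TAA and 0 to 2 for TAA+celecoxib against control (3 and 2 without TAA 1). With the replicate number as a block, edgeR called 0 genes in each comparison, and Tlr3 was at -0.50 (adjusted p = 0.534), 0.64 (0.606) and 0.14 (0.780). The block changed no call.

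Without TAA+celecoxib 1 and control 1 together, the log2 fold changes that changed sign were -0.00733 for Tlr4, -0.106 for Tlr7 and -0.117 for Tlr9 in TAA against control, 0.0962 for Tlr2, 0.159 for Tlr4 and 0.0918 for Tlr5 in TAA+celecoxib against TAA, -0.0474 for Tlr1 and -0.101 for Tlr6 in TAA+celecoxib against control. Without TAA+celecoxib 2 and TAA 1 together, an alternative chosen after seeing the data, they were 0.023 for Tlr1 in TAA against control, -0.315 for Tlr7 and -0.182 for Tlr9 in TAA+celecoxib against TAA, -0.209 for Tlr13, -0.00694 for Tlr2, -0.0133 for Tlr4, -0.0424 for Tlr5, -0.0422 for Tlr6, -0.0862 for Tlr7 and -0.599 for Tlr8 in TAA+celecoxib against control. With limma-voom, Tlr8 was at -0.137 in TAA+celecoxib against control. With 1 library left out, the ranges that crossed 0 were -0.311 to 0.0344 for Tlr1, -0.0475 to 0.388 for Tlr4, -0.0868 to 0.255 for Tlr6, -0.208 to 0.312 for Tlr7, -0.106 to 0.358 for Tlr9 in TAA against control. The same ranges were -0.243 to 0.091 for Tlr2, -0.221 to 0.219 for Tlr4, -0.986 to 0.0841 for Tlr5, -0.24 to 0.118 for Tlr6, -0.169 to 0.366 for Tlr7, -0.101 to 0.237 for Tlr9 in TAA+celecoxib against TAA. The same ranges were -0.186 to 0.63 for Tlr13, -0.0569 to 0.386 for Tlr4, -0.0176 to 1.05 for Tlr5, -0.0573 to 0.106 for Tlr6, -0.0566 to 0.358 for Tlr7, -0.58 to 0.659 for Tlr8, -0.0351 to 0.428 for Tlr9 in TAA+celecoxib against control. The median of the endosomal receptors in TAA against control ran from -0.0923 to 0.358 and that of the surface receptors from -0.0475 to 0.336. The cause of these changes was not tested. Other ranges with 1 library left out, which kept their sign, were 0.305 to 0.846 for Tlr13 (lowest without TAA 3), 0.419 to 1.07 for Tlr8, 0.675 to 1.25 for Tlr5 and 0.132 to 0.393 for Tlr2 in TAA against control, -0.85 to -0.0103 for Tlr13 (the last without TAA 3), -1.40 to -0.156 for Tlr8 and 0.154 to 0.506 for Tlr1 in TAA+celecoxib against TAA, and 0.0556 to 0.334 for Tlr1, 0.0176 to 0.351 for Tlr2 and 0.0956 to 0.220 for Tlr3 in TAA+celecoxib against control. Under the 6 settings that left out no library of the groups compared, the 6 class medians moved by at most 0.027. With FPKM recomputed from counts, the same gene lengths and TMM library sizes, the 10 receptors kept their ranks by mean level.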

Other observations

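The makeup of the receptor pool differed between libraries more for some receptors than for others. As a share of the FPKM summed over the 10 receptors, Tlr4 held 4.98% to 6.20%, Tlr2 8.79% to 12.8% and Tlr7 20.3% to 30.3%. Tlr8 held 3.77%, 17.9% and 13.3% in TAA+celecoxib libraries, 16.9%, 17.8% and 20.6% in TAA libraries, and 7.10%, 15.6% and 15.4% in control libraries. Tlr13 held 13.1% to 21.7% in TAA+celecoxib libraries, 19.1% to 23.4% in TAA libraries, and 17.2% to 17.8% in control libraries. Both Tlr8 and Tlr13 thus had a higher share in each TAA library than in any control library, and so did Tlr5. Tlr3, Tlr1, Tlr7 and Tlr4 had a lower share in each TAA library than in any control library. For Tlr4 the margin was narrow, at 5.28% in TAA 1 against 5.31% in control 1. Shares of a library have a fixed total, so a rise in some lowers others. By CPM, Tlr8 and Tlr13 overlapped between these groups. No test was run on these shares.

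Ptgs2, which encodes the enzyme that celecoxib inhibits and is induced by Toll-like receptor signalling, is named here for that role. Ptgs2 averaged 1.20 ± 0.437 CPM in TAA+celecoxib libraries, 0.905 ± 0.315 CPM in TAA libraries, and 1.05 ± 0.144 CPM in control libraries (SD, n = 3 each). Its groups overlapped in the 3 comparisons, with edgeR adjusted p-values of 0.908 for TAA+celecoxib against TAA, 0.909 for TAA against control and 0.989 for TAA+celecoxib against control.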
